A study of Mus musculus with 22 samples.

Results

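The 3 wild-type (WT) RNA sequencing libraries of LSK cells were described here on their own, out of 12 RNA libraries of 4 genotypes and 22 samples in the series. They were chosen by the genotype label alone. LSK stands for a sort gate on mouse marrow: no lineage antigens, with Sca-1 and Kit on the surface. The labels give the C57BL/6 strain, an injection of pI;pC to induce deletion, collection on day 6 after deletion, and cells taken straight from the sort with no culture. The labels name no Cre driver, age or sex, and do not say whether WT mice carried floxed alleles or whether replicates were separate animals. The mice of the other genotypes had pI;pC too. Levels are TPM, a share of all transcripts corrected for transcript length, with the transcripts of a gene summed, and are given for each library or as mean ± SD (n = 3). The spread may be technical.

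LSK cells hold hematopoietic stem cells, which can rebuild all blood lineages, and the multipotent progenitors that arise from them. pI;pC is a double-stranded RNA mimic that is sensed as a virus and makes tissues secrete type I interferon. Interferon acts through the receptor pair IFNAR1 and IFNAR2 and the transcription factors downstream of it, which bind the interferon-stimulated response element in promoters. Among its targets are antiviral proteins and Sca-1 itself, the product of Ly6a.

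WT replicate 3 stood apart from the other libraries. Over the 13066 genes whose mean reached 1 TPM, the Pearson correlation of log2(TPM + 1) was 0.97 between replicates 1 and 2, 0.96 between 1 and 3 and 0.95 between 2 and 3, as a description across genes of libraries that share a tissue and an annotation. The Y-linked genes were present in replicates 1 and 2 and near 0 in replicate 3. Eif2s3y, a translation initiation factor subunit, was at 61.6, 52.1 and 0.0291 TPM in replicates 1, 2 and 3 (the order used throughout). Ddx3y, an RNA helicase, was at 30.4, 31.1 and 0.148 TPM, Kdm5d, a histone demethylase, at 20.5, 17.6 and 0.758 TPM, and Uty at 13.2, 12.4 and 0.228 TPM. All 4 were lower in replicate 3 than in both others. Results that rest on replicate 3 are therefore given with the value in each library.

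A total of 33641 gene symbols were listed, with 105129 transcripts. At least 1 TPM was reached by 13059, 12652 and 13148 genes in replicates 1, 2 and 3, and by 12240 in all of them. At least 100 TPM was reached by 1608, 1535 and 1654 genes, and at least 1000 TPM by 153, 155 and 152. The genes at 1000 TPM or more held 39.0% ± 1.75 of all TPM. It took 382, 316 and 417 genes to hold 50% of the TPM, so replicate 2 was the most concentrated library. Each library sums to the same total, so depth is unknown and a high share in some genes lowers all others.

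**Figure D1:**
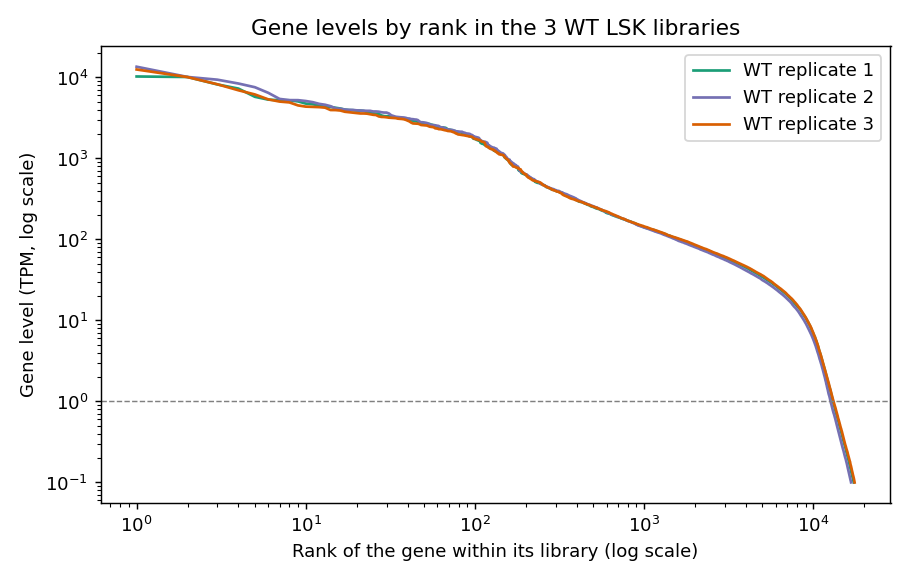
Gene levels in TPM (log scale) against the rank of the gene within its library (log scale), 1 line for each WT replicate, with a dashed line at 1 TPM. The lines lie close together, with 13059, 12652 and 13148 genes at or above the dashed line.

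The most abundant RNAs came from mitochondrially encoded respiratory chain genes and from the translation machinery. The 20 highest genes held 11.2% ± 0.595 of the TPM. mt-Atp8, an ATP synthase subunit, came first by its mean, at 12090.5 ± 1765 TPM, and Eef1a1, the elongation factor that brings tRNA to the ribosome, came next at 10182 ± 93.3 TPM. Eef1a1 was at 10288, 10149.8 and 10109.9 TPM, a spread of 1.02-fold, and ranked above mt-Atp8 in replicate 1. mt-Co1 and mt-Co3, cytochrome oxidase subunits, were at 8617 ± 674 and 7553 ± 771 TPM. The 82 cytoplasmic ribosomal protein genes held 18.4% ± 1.01 of the TPM, with 19.1%, 18.8% and 17.2% in replicates 1, 2 and 3. The 13 mitochondrially encoded genes held 5.33%, 6.97% and 5.52%, and all 13 were highest in replicate 2.

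Near-identical copies make some of these ranks uncertain. Rps12-ps3 ranked 5 at 5527 ± 218 TPM while its parent Rps12 was at 174 ± 14.7 TPM. The labels do not say how shared reads were divided between copies. Gm14303 was listed at 0, 1809.7 and 599 TPM and Rps12l1 at 4.6e-09, 516 and 138 TPM. Among ribosomal protein genes, Rpl34 was at 1253, 1118 and 247 TPM and Rps7 at 959.8, 851 and 337 TPM, with replicate 3 lowest for both. These values are listed, and the copies are not interpreted.

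The gate genes were abundant. Kit, the stem cell factor receptor, was at 268, 202 and 255 TPM, and Cd34, a sialomucin of progenitors, at 474, 411 and 469 TPM. Flt3, a receptor of multipotent and lymphoid-primed progenitors, was at 188, 113 and 149 TPM. Ly6a was at 122, 98.4 and 225 TPM, highest in replicate 3, and Ly6e, a related surface protein, at 1555, 1369 and 2187 TPM. Cd48, which marks progenitors beyond the stem cell, was at 143 ± 9.96 TPM, whereas Slamf1, the stem cell marker CD150, was at 6.54 ± 1.07 TPM. Procr, the stem cell marker EPCR, was at 29.1, 18.8 and 12.3 TPM. In bulk RNA, fewer cells of a type and less RNA per cell cannot be told apart.

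Stem cell transcription factors were all expressed. All 50 reached a mean of 1 TPM and 13 of them 100 TPM. Over the 13066 genes, 8.52% differed at least 2-fold between the highest and lowest library on TPM + 1 and 2.53% at least 4-fold. Among the 50 factors, 6 passed 2-fold and 0 passed 4-fold, a share near that of all genes. Lmo2, a bridging factor of the stem cell complex, was highest at 693 ± 64.6 TPM, and Myb, which sustains progenitor growth, was at 348 ± 44.9 TPM. Gata2 was at 145, 163 and 136 TPM, Meis1 at 76.4 ± 6.14 TPM, Hlf at 72.9 ± 14.6 TPM and Mecom at 19.5 ± 1.99 TPM. Hoxb5, a homeobox factor of long-term stem cells, was lowest at 1.7 ± 0.259 TPM. Hmga2, a chromatin factor of fetal and young stem cells, was at 11.4, 13.3 and 4.26 TPM.

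Most antigens of the lineage depletion were low, and 5 of the 16 genes did not reach a mean of 1 TPM. Cd3e, the T cell receptor subunit, was at 0.151, 0.16 and 1.23 TPM, Ms4a1 (CD20) at 0.208, 0.0379 and 0.129 TPM and Ly6g, the neutrophil antigen, at 0, 0 and 0.947 TPM. Ly6c2, a monocyte and interferon-responsive antigen, was higher, at 146, 139.9 and 766 TPM.

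**Figure D2:**
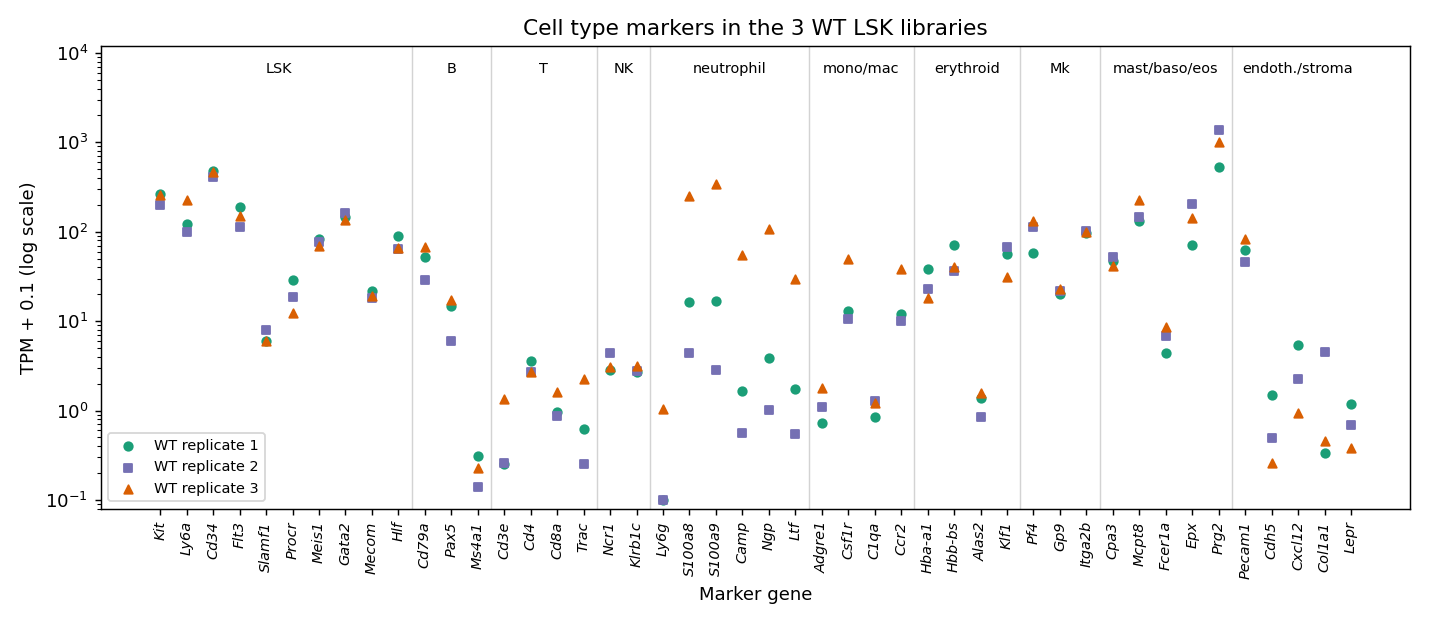
TPM + 0.1 (log scale) of cell type markers, 1 point for each WT replicate, grouped by cell type. Kit, Cd34 and Flt3 lie near or above 100 TPM in all 3 libraries, and the neutrophil markers S100a8, S100a9, Camp, Ngp and Ltf are highest in replicate 3.

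Some genes of several committed fates were abundant. Median levels were 96.3 TPM for myeloid progenitor, 39.7 for erythroid, 36.4 for lymphoid priming and 33.7 for mast cell, basophil and eosinophil genes. For megakaryocyte and platelet genes the median was 17.8 TPM, against 22.9 TPM over all 13066 genes. Medians cover genes at a mean of 1 TPM or more, which were 16 of 24 in the mast cell list and 19 of 22 in the megakaryocyte list. Mpo, the myeloperoxidase of granule-forming progenitors, was at 1456, 1592 and 2926 TPM, and Elane, neutrophil elastase, at 404, 408 and 690.4 TPM. Prg2, the eosinophil major basic protein, was at 524, 1359 and 1018 TPM and Epx, eosinophil peroxidase, at 71.3, 203 and 143 TPM, both lowest in replicate 1. Car1 and Car2, carbonic anhydrases of the erythroid lineage, were at 625, 689 and 304 TPM and at 492, 694 and 277 TPM, both lowest in replicate 3. Pf4, a platelet chemokine, was at 58.4, 113 and 131 TPM and Itga2b, the platelet integrin CD41, at 95.7, 102 and 100.1 TPM. Dntt, the terminal transferase of early lymphoid cells, was at 442, 276 and 229 TPM.

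A few antibody transcripts were among the abundant RNAs. The plasma cell and antibody list was made after values were seen. Of its 15 genes that reached a mean of 1 TPM, 4 reached 100 TPM, and the median was 21.5 TPM. Igkc, the kappa light chain constant region, was at 3125, 2846 and 1873 TPM, Igha, the IgA heavy chain, at 2346, 2137 and 1388 TPM, and Jchain, which joins IgA and IgM units, at 338, 337 and 217 TPM. Replicate 3 was lowest for these 3 genes. Over the 15, replicate 3 was lowest for 7, replicate 2 for 6 and replicate 1 for 2. The plasma cell regulators Irf4 and Prdm1 were at 1.84 ± 0.922 and 0.789 ± 0.206 TPM, and Sdc1, the plasma cell surface protein CD138, at 15.7 ± 4.66 TPM. The part of other cells in these levels was not tested.

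None of the 45 S phase genes and none of the 38 G2/M genes differed 2-fold between any libraries. The share was 8.52% of all genes and 5.13% of named genes. Those shares include genes down to 1 TPM, while all genes of both lists reached a mean of 10 TPM. None of 54 nuclear oxidative phosphorylation genes, 32 translation factors and 28 cytoskeleton genes passed 2-fold either, so this was not particular to the cell cycle. Pcna, the DNA polymerase clamp, was at 479.6, 509 and 514 TPM, Mki67, a marker of cycling cells, at 163, 177 and 176 TPM and Cdk1, the mitotic kinase, at 247, 246 and 245 TPM. Of the inhibitors, Cdkn1b (p27) was at 27.7, 28.6 and 39.9 TPM, Cdkn1a (p21) at 13.7 ± 0.801 TPM and Cdkn1c (p57), a quiescence factor, at 6.56, 8.44 and 1.88 TPM. Cdkn2a was at 0, 0 and 0.0582 TPM.

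The CHD remodelers, ATP-driven proteins that move nucleosomes, spanned 341 TPM to under 1 TPM. Chd9 was highest at 341 ± 18.7 TPM, and then came Chd4, the NuRD motor, at 202 ± 7.72 TPM and Chd3 at 108 ± 13.9 TPM. Chd8 was at 67.4, 48.2 and 73.9 TPM, a mean of 63.1 ± 13.3 TPM that overlapped the 62.9 ± 4.52 TPM of Chd1. Chd2 at 35.5 ± 3.43 and Chd6 at 33.1 ± 9.39 TPM also overlapped. Chd7 was at 2.41 ± 0.666 TPM and Chd5 at 0.161 ± 0.0254 TPM. None of the 8 CHD genes that reached a mean of 1 TPM differed 2-fold between libraries, and 2 of 43 other chromatin regulators did (4.65%). Against 8.52% of all genes, these counts do not set either list apart. Kdm6a, an X-linked H3K27 demethylase, was at 18, 14.9 and 38.2 TPM and Tet2, a 5-methylcytosine oxidase, at 15, 11.2 and 28 TPM. Trp53, the gene for p53, was at 254 ± 21.1 TPM, its inhibitor Mdm2 at 41.8 ± 7.1 TPM and its target Bax, a pore-forming death protein, at 83.9 ± 4.45 TPM.

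The genes that varied most were not spread evenly over gene classes. Of 331 genes that differed at least 4-fold, 117 were antigen receptor segments, 108 were pseudogenes, predicted models or clone names and 98 were named genes, with 8 not matched to RefSeq. The 98 were 0.852% of 11504 named genes. A gene listed at 0 in all but 1 library passes 4-fold whenever its mean reaches 1 TPM, so these counts depend on the filter. Replicate 3 was the library farthest from the others for 168 of the 331 (50.8%). Among the 98 named genes, a subset taken after the values were seen, it was farthest for 80 (81.6%) and also the highest for 69. Among antigen receptor segments it was farthest for 40 of 117 (34.2%). Of all 13066 genes, 45.8% were highest in replicate 3 as deposited, more than in either other library. That order depended on the scaling. Under median-of-ratios scaling 4775 genes were highest in replicate 3 and 5310 in replicate 2, and under quantile normalization 4680 and 5235. Between replicates 1 and 2 alone, 2.66% of the 13066 genes differed 2-fold, against 4.75% between replicates 1 and 3 and 6.54% between replicates 2 and 3.

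**Figure D3:**
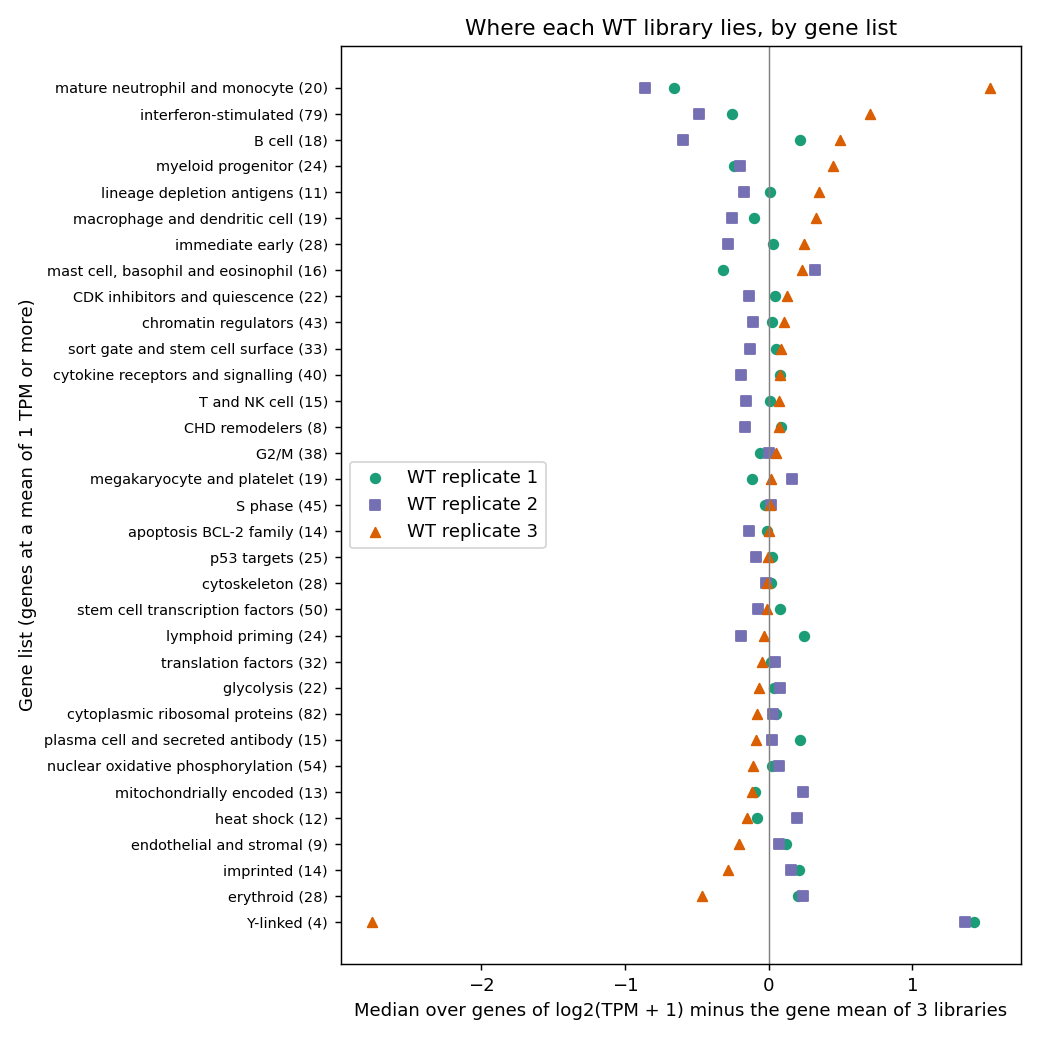
For each gene list, the median over its genes of log2(TPM + 1) in a library minus the mean of the 3 libraries, 1 point for each WT replicate, with the number of genes at a mean of 1 TPM or more in brackets. Replicate 3 lies highest for the mature neutrophil list (1.54) and the interferon-stimulated list (0.71) and lowest for the Y-linked list (-2.77).

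Interferon-stimulated genes were expressed in all 3 libraries and were highest in replicate 3. Of 80 listed, 79 reached a mean of 1 TPM and 23 a mean of 100 TPM. Replicate 3 was highest for 75 of the 79, against 45.8% of all genes. The other 4 were Ifitm1, Ifitm2, Lgals9 and Psmb10. Of the 79, 45 differed 2-fold (57.0%, against 8.52% of all genes) and 25 differed 4-fold (31.6%, against 2.53%). Between replicates 1 and 2, 1 of the 79 differed 2-fold, a count too small to set apart from the 2.66% of all genes. Replicate 2 was lowest for 64 of the 79, against 6965 of all 13066 genes. The median gene was 1.06 higher on the log2 scale in replicate 3 than in the mean of the others, against 0.06 over all genes. In the same library the mature neutrophil list summed to 2006 TPM, against 423 and 352 TPM in replicates 1 and 2, and the 4 Y-linked genes were near 0. Their part in the result was not tested.

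**Figure D4:**
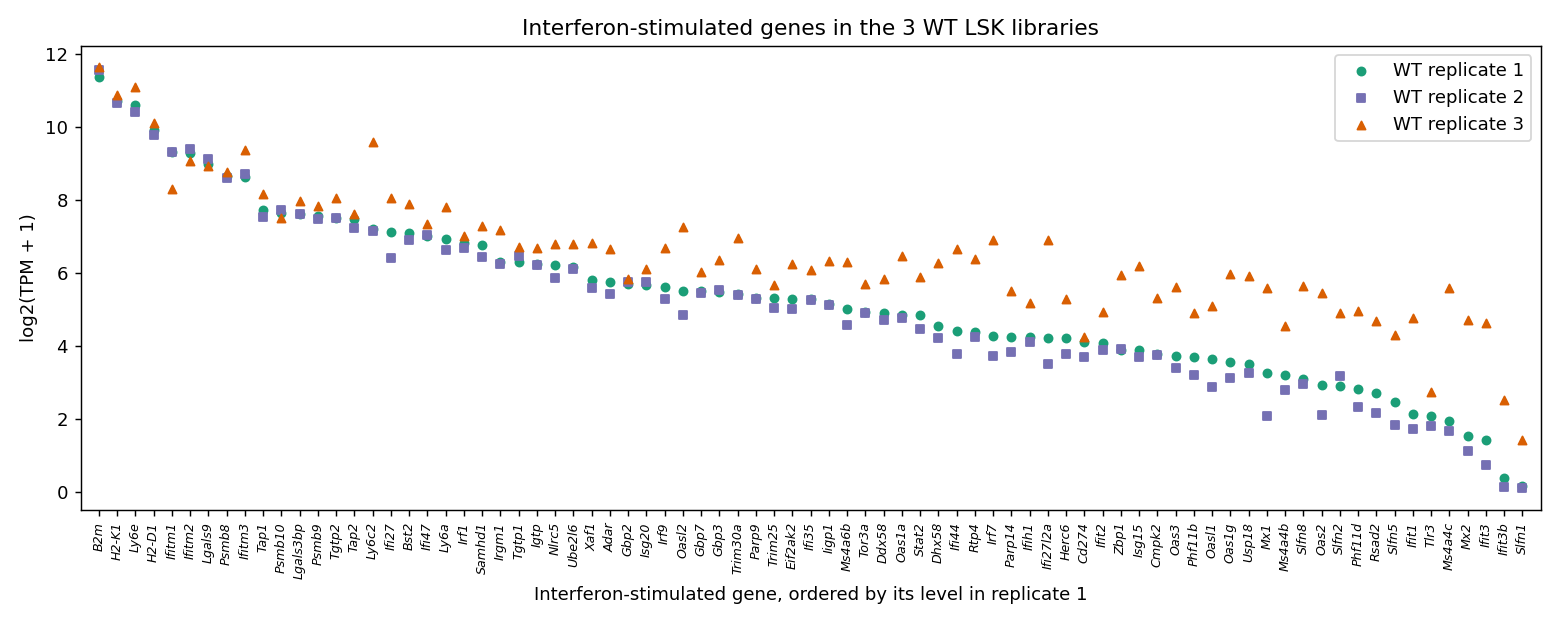
log2(TPM + 1) of the interferon-stimulated genes, ordered by their level in WT replicate 1, 1 point for each replicate. Replicates 1 and 2 follow each other, replicate 3 lies above them for most genes, and Ifitm1 lies lower in replicate 3 (316 TPM) than in replicates 1 and 2 (637 and 633 TPM).

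The families of the pathway, grouped after the values were seen, differed in size of spread. Active enzymes of the 2-5A synthetase family make the messenger that switches on RNase L. All 6 genes of this family passed 2-fold (100%, against 8.52% of all genes) and 5 passed 4-fold (83.3%, against 2.53%). Oas2 was at 6.61, 3.35 and 43.1 TPM and Oasl2 at 44.3, 28.1 and 152 TPM. All 4 IFIT genes, which bind viral RNA ends, passed 2-fold (100%, against 8.52% of all genes). Ifit3 was at 1.7, 0.663 and 23.8 TPM and Ifit1 at 3.38, 2.32 and 26.1 TPM. For each, replicate 3 lay well above both others.

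The regulators were less uniform. Irf7, the factor that amplifies type I interferon, was at 18.2, 12.3 and 118 TPM, a spread of 8.94-fold on TPM + 1. Stat2 was at 27.9, 21.3 and 58.7 TPM and Irf9 at 48.2, 38.3 and 101 TPM. Irf1, which also answers type II interferon, was at 112, 102 and 128 TPM and did not reach 2-fold. The receptor genes Ifnar1 and Ifnar2 were at 37.4 ± 7.18 and 92.3 ± 16.4 TPM.

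None of 8 antigen presentation genes reached 2-fold, a count too small to set apart from the 8.52% of all genes. B2m, the light chain of class I molecules, was at 2663, 3019 and 3189 TPM and H2-K1, a class I heavy chain, at 1674, 1612 and 1888 TPM. Among 10 GTPases, 3 passed 2-fold (30%, against 8.52% of all genes). Gbp2, a guanylate-binding protein, was at 51.3, 53.3 and 56.5 TPM, while Mx1 was at 8.5, 3.26 and 47.2 TPM. RefSeq lists Mx1 as a transcribed pseudogene in the reference assembly.

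The PYHIN genes, a cluster of nucleic acid sensors on chromosome 1 matched by symbol after the values were seen, had the same pattern. All 11 that reached a mean of 1 TPM passed 2-fold (100%, against 8.52% of all genes) and 7 passed 4-fold (63.6%, against 2.53%). All 11 were highest in replicate 3, against 45.8% of all genes. Ifi213 was at 4.16, 1.93 and 52.1 TPM and Ifi204 at 1.35, 0.923 and 26.5 TPM. Mndal, the most abundant, was at 137, 103 and 287 TPM.

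Promoters of interferon genes are shown because their response element is the feature these genes are known to share. The core searched was GAAA, any pair of bases, then GAAA, on both strands, where the opposite strand reads TTTC, any pair, TTTC. The windows around each gene start came from RefSeq (GRCm38.p6). The core occurs in 28 of the 61 listed genes that have a window and a mean of 1 TPM or more (45.9%), against 3.99% of all 27025 genes with a window. Capitals mark 1 matched core in each window, and each sequence is written along the gene's strand. The Ifit1 window holds a further match, and the Isg15 window holds 2 that overlap the marked one, all left in lower case. The first 4 genes differed 4-fold between libraries, and the last 2 did not reach 2-fold.
Ifit1 (chr19:34640745-34640834, plus strand): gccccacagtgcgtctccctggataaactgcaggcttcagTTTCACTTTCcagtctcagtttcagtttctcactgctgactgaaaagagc
Isg15 (chr4:156200841-156200930, minus strand): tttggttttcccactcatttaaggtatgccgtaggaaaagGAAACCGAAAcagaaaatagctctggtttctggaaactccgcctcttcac
Rsad2 (chr12:26456523-26456612, minus strand): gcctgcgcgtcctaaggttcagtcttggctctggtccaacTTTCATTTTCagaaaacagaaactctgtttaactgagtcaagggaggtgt
Oas3 (chr5:120777685-120777774, minus strand): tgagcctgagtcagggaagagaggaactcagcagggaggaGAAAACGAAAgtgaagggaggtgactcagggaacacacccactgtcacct
B2m (chr2:122147508-122147597, plus strand): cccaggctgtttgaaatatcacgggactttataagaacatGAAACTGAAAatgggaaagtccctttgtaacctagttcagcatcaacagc
Gbp2 (chr3:142620564-142620653, plus strand): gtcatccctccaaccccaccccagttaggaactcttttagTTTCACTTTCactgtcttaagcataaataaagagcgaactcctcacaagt

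Isg15, a ubiquitin-like protein, was at 13.9, 12.1 and 72.4 TPM, Rsad2, the antiviral viperin, at 5.56, 3.5 and 24.5 TPM and Oas3 at 12.2, 9.56 and 48 TPM. The core was also present among listed genes that varied less: it occurs in 9 of 17 that passed 4-fold, 7 of 16 between 2-fold and 4-fold, and 12 of 28 under 2-fold. A match is a description of the letters and not of binding.

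Genes of mature neutrophils and monocytes were low in replicates 1 and 2 and higher in replicate 3. Of 24 listed, 20 reached a mean of 1 TPM and all 20 were highest in replicate 3, against 45.8% of all genes. Of the 20, 18 passed 2-fold (90%, against 8.52% of all genes) and 13 passed 4-fold (65%, against 2.53%). Between replicates 1 and 2, 4 of the 20 differed 2-fold, against 2.66% of all genes. S100a9, a calcium-binding alarmin, was at 16.6, 2.78 and 343 TPM and its partner S100a8 at 16.3, 4.31 and 253 TPM. Among granule proteins, Ngp was at 3.73, 0.904 and 108 TPM, Camp, a cathelicidin, at 1.54, 0.464 and 55.4 TPM and Ltf, lactoferrin, at 1.63, 0.449 and 29.6 TPM. The list summed to 423 TPM in replicate 1, 352 in replicate 2 and 2006 in replicate 3, and the defining marker Ly6g was listed at 0 in replicates 1 and 2.

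Of 24 genes of myeloid progenitors, 18 were also highest in replicate 3, against 45.8% of all genes. Of the 24, 7 passed 2-fold (29.2%, against 8.52% of all genes). Only 1 passed 4-fold (4.17%, against 2.53%), a share near that of all genes. None of the 24 differed 2-fold between replicates 1 and 2, a count too small to set apart from the 2.66% of all genes. Csf1r, the macrophage growth factor receptor, was at 12.9, 10.5 and 49.8 TPM, and Irf8, a factor of monocyte and dendritic fates, at 81, 59.7 and 212 TPM. Ly86, a partner of a Toll-like receptor relative, was at 20.1, 19.8 and 79.3 TPM and Plac8 at 1493, 1321 and 2769 TPM. Srgn, the granule proteoglycan serglycin, was level at 865, 845 and 830.3 TPM.

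The list of mast cell, basophil and eosinophil genes separated replicate 1 instead. Of 24 listed mast cell, basophil and eosinophil genes, 16 reached a mean of 1 TPM. Replicate 1 was lowest for 10 of the 16, against 1981 of all 13066 genes. Of the 16, 8 passed 2-fold (50%, against 8.52% of all genes) and 0 passed 4-fold, against 2.53%. Between replicates 1 and 2, 6 of the 16 differed 2-fold, against 2.66% of all genes. Ear2, an eosinophil ribonuclease, was at 132, 386 and 314 TPM and Prg3, a relative of major basic protein, at 25.8, 72 and 59.7 TPM. Both were lowest in replicate 1, as were Prg2 and Epx. These named genes are all of eosinophils, and the counts do not set them apart from the mast cell and basophil members.

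A pair of stress genes also separated replicate 3. The inducible chaperones Hspa1b and Hspa1a were at 0.411, 0.962 and 80 TPM and at 0.0801, 0.0997 and 46.5 TPM. The constitutive Hspa8 was at 2451, 3985 and 2691 TPM, highest in replicate 2. The heat shock list did not share the order of the pair. Of its 12 genes at a mean of 1 TPM or more, 8 were highest in replicate 2 and 3 in replicate 3. Over all genes, 21.3% and 45.8% were highest in replicates 2 and 3. Replicate 3 was lowest for 7 of the 12, against 4120 of all 13066 genes. Of the 12, 2 passed 2-fold (16.7%, against 8.52% of all genes). Of 28 immediate early genes, 20 were highest in replicate 3, against 45.8% of all genes. Of the 28, 10 passed 2-fold (35.7%, against 8.52% of all genes). Fos was at 143, 90.7 and 383 TPM and Dusp1, a phosphatase of the same response, at 58.7, 43.8 and 145 TPM, whereas Egr1 was at 30.6, 20.5 and 25.7 TPM.

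Erythroid genes had the opposite order. Of 28, 3 were highest in replicate 3, 16 in replicate 2 and 9 in replicate 1. Over all genes, 45.8%, 21.3% and 32.9% were highest in replicates 3, 2 and 1. Of the 28, 12 passed 2-fold (42.9%, against 8.52% of all genes). Klf1, the erythroid master factor, was at 55.6, 67.8 and 31 TPM and Gata1 at 53.7, 67.8 and 37.2 TPM. The globin Hbb-bt was at 23.3, 1.25 and 1.56 TPM, high in replicate 1 alone. Of 18 B cell genes, 13 were lowest in replicate 2, as were 6965 of all 13066 genes. Replicate 3 was highest for 13 of the 18, against 45.8% of all genes. The list summed to 4483, 3775 and 3235 TPM, lowest in replicate 3, and Igkc made up most of that sum. Of the 18, 11 passed 2-fold (61.1%, against 8.52% of all genes). Between replicates 1 and 2, 5 of the 18 differed 2-fold, against 2.66% of all genes. Igll1 and Vpreb1, which form the surrogate light chain, were at 74, 31.1 and 109.7 TPM and at 56.8, 20.7 and 75.8 TPM.

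Several single genes outside these groups were among the 30 most variable. Gdpd3, a phospholipase, was at 3.58, 26.2 and 121 TPM, different in every library. Slc15a2, a peptide transporter, was at 5.43, 39.3 and 0.76 TPM and Eps8l1 at 34.1, 15 and 0.594 TPM, both lowest in replicate 3. Trim12a was at 12.9, 0.659 and 1.56 TPM, high in replicate 1 alone. Amd2 was at 8.86, 11.2 and 0.595 TPM. Antigen receptor segments passed 4-fold more often than other classes, with 117 of 209 (56.0%). A segment listed at 0 in all but 1 library passes 4-fold on TPM + 1 whenever its mean reaches 1 TPM. How much of the count comes from that filter was not tested. Igkv6-25, a kappa variable segment, was at 49.6, 0 and 0 TPM and Igkv11-125 at 0.226, 41.8 and 0 TPM, each high in 1 library. At the other end, Babam1, a subunit of a DNA repair complex, was at 107, 107 and 106 TPM and Morf4l1, a histone acetyltransferase subunit, at 437, 438 and 434 TPM.

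For most genes 1 transcript led in every library. Of 8614 genes at a mean of 5 TPM or more with 2 or more transcripts, 7563 (87.8%) had the same most abundant transcript in all 3. Over all 8614, the transcript with the highest mean TPM held a median of 64.9% of the gene's TPM. Its share was at least 80% in 2688 genes (31.2%) and under 50% in 2499 (29.0%). The median share was 91.8% in genes with 2 transcripts and 40.7% in those with 11 or more. There were 5803 named genes at 20 TPM or more with 2 or more transcripts. In 111 of them a transcript had a share that moved by 25 points or more between libraries. In 63 of the 5803 the 2 leading transcripts were within 1% of each other in every library.

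**Figure D5:**
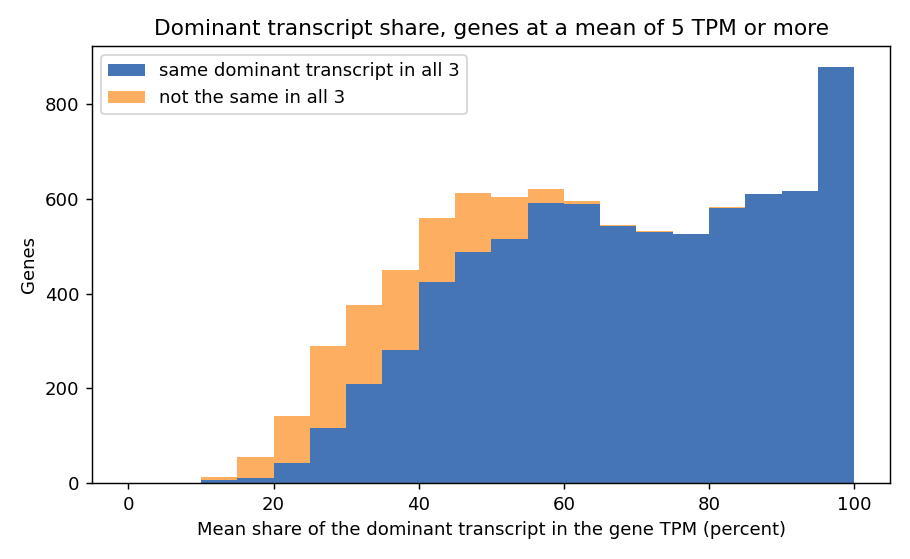
Number of genes by the mean share of the dominant transcript in the gene TPM (percent), stacked by whether the same transcript led in all 3 WT libraries. Genes whose leader was not the same in all 3 make up 1051 of the 8614, and 2688 genes lie at 80% or more.

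Among stem cell genes, Flt3 was nearly all from ENSMUST00000049324.12 (97.6%, 97.8% and 96.6%). Kit was divided between ENSMUST00000144270.7 (42.8%, 45.4% and 38.5%) and ENSMUST00000005815.6 (35.4%, 39.4% and 35.3%). Cd34 was divided between ENSMUST00000016638.7 (62.4%, 54.6% and 58.9%) and ENSMUST00000110815.8 (36.6%, 44.3% and 40%). The leading Chd8 transcript, ENSMUST00000200169.4 (43.3%, 46.7% and 39.3%), held under 50%, and Pkm, a glycolytic kinase with a known splice switch, came mostly from ENSMUST00000034834.15 (84.4%, 81.7% and 82.5%).

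Some abundant genes had no constant leader. Rpl11, a ribosomal protein of the large subunit, changed leader between ENSMUST00000155873.2 (43.3%, 57.4% and 48.1%) and ENSMUST00000102536.10 (54.2%, 41% and 48.6%). Hemgn, a nuclear factor of hematopoietic cells, was led by ENSMUST00000107764.8 (85.6%, 57.2% and 28.5%) in replicates 1 and 2 and not in replicate 3. Rplp0, a ribosomal stalk protein, kept its leader, ENSMUST00000086519.11 (90.4%, 64.3% and 51.9%), at a share that was lowest in replicate 3. Xaf1, an interferon-induced factor that promotes cell death, was led by ENSMUST00000146233.7 (63.7%, 64.8% and 6.76%) in replicates 1 and 2 and not in replicate 3, while the gene itself was at 54.5, 46.7 and 112 TPM. Replicate 3 had the low share of that transcript and the high total of the gene.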

How the data were processed

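The authors deposited 1 table of transcript TPM for each library, with RNA from Trizol extraction. The submitters' processing notes name, with no role, STAR 2.6.1e, featureCounts 1.6.2, cutadapt 1.9.1 with Trim Galore 0.4.2, and FastQC 0.11.7, on GRCm38 (mm10). No source used here names the program behind the TPM. TPM values of the transcripts of each gene were summed with Python 3.11.15, pandas 2.3.3 and numpy 2.4.6, and figures were drawn with matplotlib 3.10.9. Spread was taken on log2(TPM + 1) among genes whose mean reached 1 TPM. There is 1 group, so no test was run. Of the gene symbols, 27768 matched RefSeq by symbol and 796 by a single synonym. The step that finds the spread and the library farthest from the others was tested on simulated data. The members and lists were chosen with earlier results of these data known, and the antibody list, the interferon families, the PYHIN group and the promoter search after values were seen.

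Named genes were the 20 highest, the 30 most variable at 5 TPM or more, genes with 2 leading transcripts or no constant leader at 20 TPM or more, up to 6 members of each list at its extremes, and all of the gate, CHD and Y-linked lists, of which the text gives a selection. Predicted models, pseudogenes and antigen receptor segments were left out of the variable and transcript rules. Other genes named, among them Gm14303 and Rps12l1, were chosen after their values were seen. Some genes of the lists are counted but not reported by name here, and the plots leave them out.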

Additional observations from a re-analysis of the deposited data

How the results depend on the processing

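No paired analysis was possible because the libraries form 1 group and no result comes from a test. Leaving out each library moved the genes that differ 2-fold between 351 and 872 and those that differ 4-fold between 142 and 245, both lowest without replicate 3. Without replicate 2 they were 642 and 194. Fewer libraries give fewer differences by construction, and the library farthest from the others cannot be given for 2 libraries. With a mean of at least 5 TPM, 692 and 215 genes passed. With named genes only, an alternative chosen after seeing the data, 590 and 98 passed, and replicate 3 was farthest for 81.6% against 50.8% of all 4-fold genes. Ribosomal protein genes held 15.1% when only the most abundant transcript of each gene counted and 19.5% after rescaling without mitochondrially encoded genes, which put the top 20 genes at 9.65%. A pseudocount of 0.1 gave 1665 and 474 genes. The interferon-stimulated list was highest in replicate 3 for 73 to 75 of 79 genes under the 3 other scalings, and the neutrophil list for 20 of 20. The library in which most S phase genes were highest was replicate 3 (21 of 45) as deposited and replicate 2 (31 of 45) under median-of-ratios scaling. Of 169 values for list ranks under alternatives, 20 moved by more than the spread between libraries, by at most 4.51 percentile points. The mature neutrophil list moved by 8.73 points without replicate 3, within its wider spread. Depth is unknown, so low values carry no counting error.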
